A study of Mus musculus with 2 samples.

Results

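The genes examined were 33 mouse genes of cilium assembly and transport, taken by name from a list. No measured value entered the rule, but the list was chosen with earlier results of these data known. They cover the intraflagellar transport (IFT) particle, the Bardet-Biedl syndrome (BBS) proteins, ciliary GTPases, kinesin motors, the transition zone and 2 transcription factors. All 33 were found in the GENCODE M21 annotation of GRCm38, among 21544 protein-coding genes that lie between the first and the last boundary of their chromosome. In situ Hi-C, which ligates and reads DNA ends that are close together in the nucleus, was run on mature olfactory sensory neurons that express Olfr16, sorted by flow cytometry from MOR23-GFP mice. The animals were adults, sex is given as mixed, no strain, treatment or further modification is named, and the tissue was olfactory epithelium. Biological replicate 1 held 28000 cells and replicate 2 held 24400 cells, both fixed in 1% formaldehyde and cut with DpnII. The 2 replicates form 1 group and there is no control group. The data are 7435 boundaries of 5 kb, which part stretches of chromosome with many internal contacts and were called by the authors on both replicates together.

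Cilia are built and supplied by trains that run along their microtubules. The IFT-B complex travels outward with kinesin-2 motors, IFT-A serves the return journey, and the BBSome, a coat of BBS proteins, carries membrane proteins that the transition zone at the cilium's base lets in or out. Olfactory sensory neurons detect odorants on cilia at the tip of their dendrite, where receptors, G protein, adenylyl cyclase and channels are concentrated, and loss of BBS proteins or of Cep290 is known to impair the sense of smell. Regulatory factor X (RFX) proteins, among them Rfx3, bind a sequence called the X-box in promoters of many ciliary genes. The file used here holds neither expression nor binding, so the cell type could not be checked against marker genes, and each value below concerns where a gene lies relative to a boundary. The list has no values per replicate and its depth is unknown, so no spread between replicates can be given.

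Of the 33 gene starts, 6 lay within 10 kb of a boundary: those of Ift46, Mks1, Rfx3, Bbs7, Ttc21b and Ift22. That is 18.2% (exact 95% interval 6.98 to 35.5%, which covers counting error only), where the share over all protein-coding genes was 12.5%. The background share lay within the interval of the members' share. Starts inside a boundary numbered 2, or 6.06%, against 3.29% of all genes. Within 25 kb there were 8 members (24.2%, against 24.8%) and within 50 kb 16 members (48.5%, against 44.3%). At these wider windows the members' shares were close to those of all genes. Members stood at a median of 50.6 kb from a boundary, with quartiles of 25.4 and 104.4 kb. For all protein-coding genes the median was 57.8 kb, with quartiles of 25.4 and 105.9 kb. The members reached from 0 to 219.2 kb. Between the farthest of the 6, Ift22 at 8.15 kb, and the nearest of the remaining 27, Ift81 at 20.5 kb, no member start was found.

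**Figure D1:**
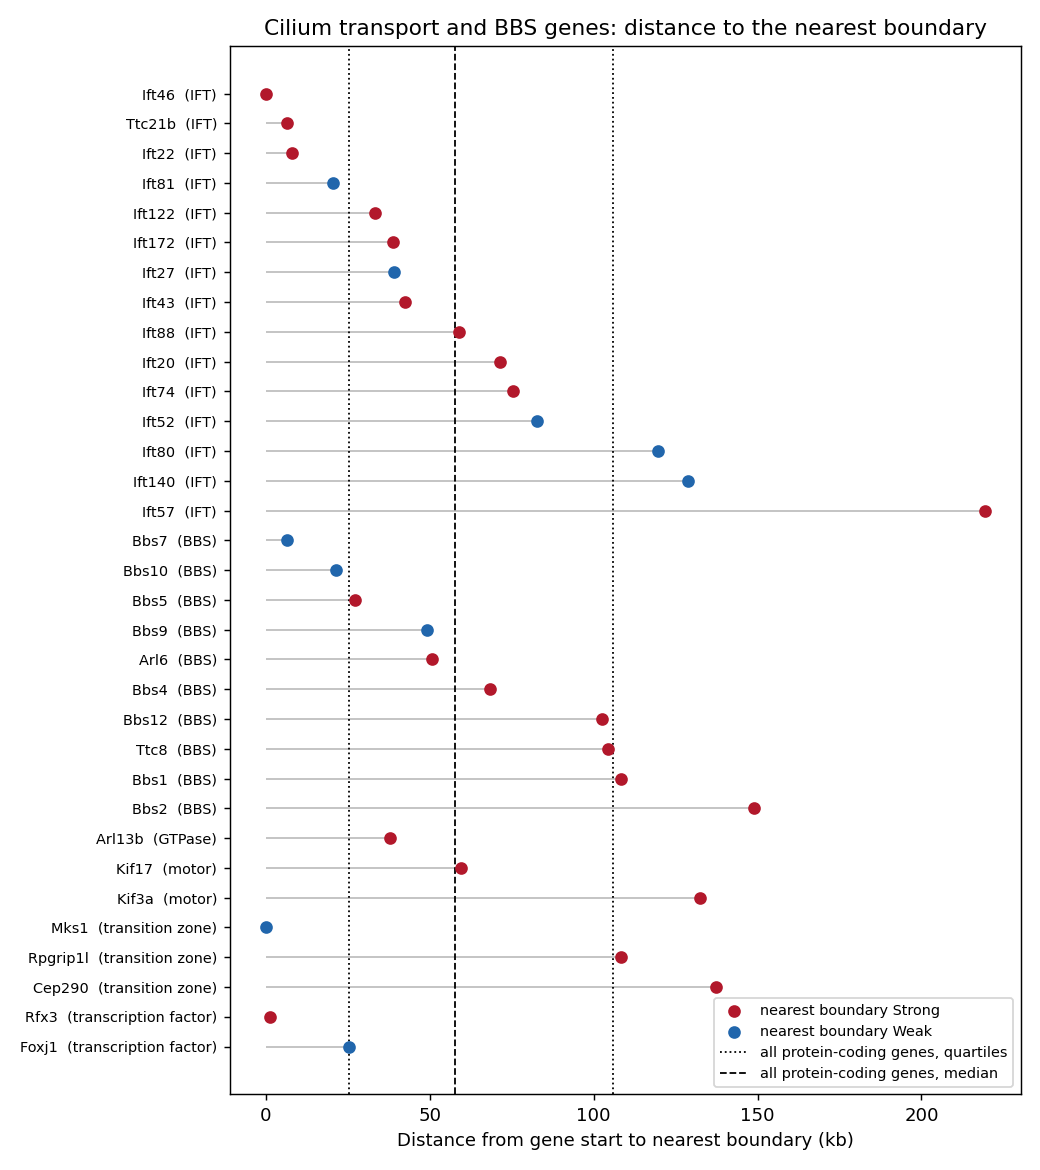
Distance in kb from each member's start to the nearest boundary, grouped by class of protein; colour gives the authors' class of that boundary, and vertical lines give the median and quartiles of all protein-coding genes. The 6 starts under 10 kb belong to 4 of the 6 classes, and Ift57 is the farthest at 219.2 kb.

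Each boundary carries the authors' strength score and a class, Strong or Weak, and the scores of the classes did not overlap. The nearest boundary was Strong for 23 members and Weak for 10, 69.7% Strong (exact 95% interval 51.3 to 84.4%) against 62.9% over all genes. The 33 members had 33 different nearest boundaries, so none of these values was counted for more than 1 member. Their scores ran from 0.217 at Ift140 to 1.91 at Cep290, with a median of 0.736, where the median over the nearest boundaries of all genes was 0.668. The highest nearest-boundary scores were those of Cep290, Bbs5 and Bbs4. None of these 3 genes started within 10 kb of its boundary. The members were spread over 15 of the 20 chromosomes of the list, with 4 on chromosome 11 and none on X.

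**Figure D2:**
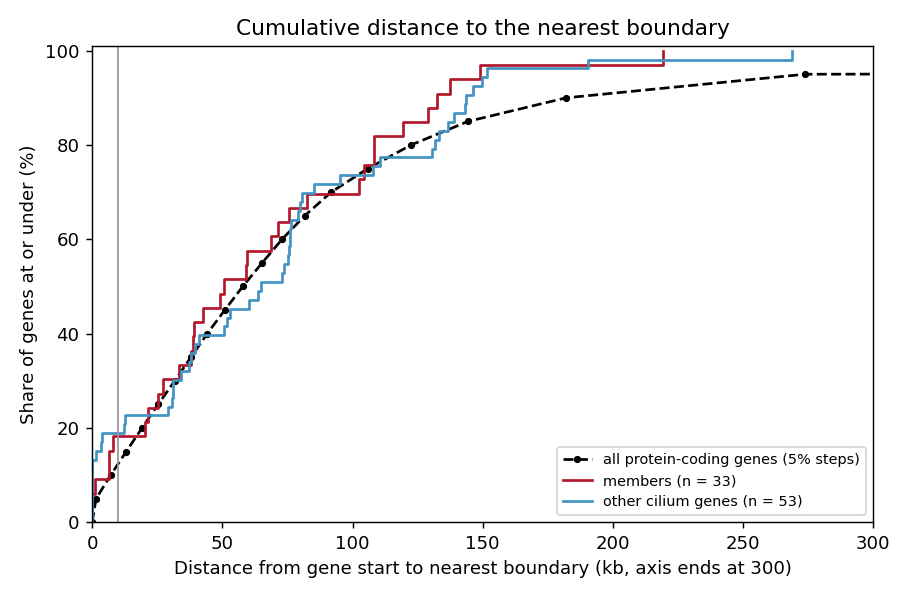
Cumulative share of genes, in percent, with a start at or under each distance to the nearest boundary, in kb, for the 33 members, 53 other cilium genes and all protein-coding genes (points at steps of 5%). The grey line marks 10 kb, where the members' curve is at 18.2% and that of all genes at 12.5%. At 50 kb the members are at 48.5%, the other cilium genes at 39.6% and all genes at 44.3%.

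Among the 11 IFT-B genes, 2 started within 10 kb of a boundary. Ift46, whose product is needed for transport of axonemal cargo, is annotated on chromosome 9 from 44767908 to 44793447 on the + strand, and its start lay inside a Strong boundary at 44765001 to 44770000 with a score of 0.736. This boundary also held the start of Arcn1, which encodes a coat protein of Golgi vesicles and runs the other way from a start 63 bases upstream. The boundary overlapped exons of both genes. The RefSeq start of Ift46 is 5.10 kb further along the gene, 3.01 kb outside the boundary, so its place inside rests on the outermost annotated start, while it remained within 10 kb by either one. The 62 bases between the annotated exons of the pair, which lie inside the boundary, held no match to the RFX hexamer described below. They are shown on the + strand of GRCm38, chr9:44767846-44767907:

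Ift46 and Arcn1: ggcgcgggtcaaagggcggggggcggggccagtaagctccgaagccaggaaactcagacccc

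Ift22, which encodes a GTPase-like subunit (chromosome 5, 136908150 to 136915404, + strand), lay 8.15 kb downstream of a Strong boundary with a score of 1.32, at 136895001 to 136900000 over a processed pseudogene, Gm43649. With a score that 86.2% of boundaries did not exceed, it was the strongest beside any of the 6 near starts. Ift22 also sat in the shortest interval between boundaries of any member, 80 kb with 3 protein-coding starts, closed on the other side by a Weak boundary 71.9 kb away.

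The other 9 IFT-B genes were farther away. Ift81, whose product binds tubulin together with that of Ift74, started 20.5 kb from a Weak boundary scored 0.285. Ift172 lay 38.9 kb from a Strong boundary scored 1.18, and Ift27, a Rab-like GTPase that takes part in the exit of BBSome cargo, 39.1 kb from a Weak one scored 0.339. All 3 lay nearer to a boundary than the median gene. Ift88, a subunit without which cilia fail to form, was at 59.1 kb, and Ift20, which also resides at the Golgi, at 71.4 kb. Ift74 was at 75.5 kb, Ift52 at 82.6 kb and Ift80 at 119.6 kb. Ift57 was the farthest of all members: its start on chromosome 16 lay 219.2 kb from a Strong boundary scored 1.08, farther than or as far as 92.8% of protein-coding genes. The interval around it measured 595 kb and held 2 protein-coding starts.

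The 4 IFT-A genes included 1 near start. Ttc21b, which encodes the subunit also known as IFT139 (chromosome 2, 66184327 to 66256617, − strand), had a Strong boundary scored 0.697 at 6.62 kb from its start, spanning 66245001 to 66250000. This boundary lay inside the gene, downstream of the start, and overlapped exonic sequence. Another annotated transcript of Ttc21b begins 7.21 kb from the gene start, inside the boundary itself. Ift122 followed at 33.5 kb (score 0.794) and Ift43 at 42.5 kb (score 0.776), both by Strong boundaries. Ift140 had the weakest nearest boundary of the 33, scored 0.217, at 128.9 kb; 4.98% of boundaries scored this low or lower. The interval around its start held 16 protein-coding starts, the most for any member.

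Among the 10 BBS genes, Bbs7 alone had a start within 10 kb. It encodes a BBSome subunit (chromosome 3, 36573142 to 36613477, − strand) and its start was 6.52 kb downstream of a Weak boundary scored 0.369. No other protein-coding start was within 10 kb of that boundary. The nearest Strong boundary was 226.5 kb from Bbs7. The remaining BBSome subunit genes were Bbs5 at 27.2 kb, Bbs9 at 49.3 kb, Bbs4 at 68.5 kb, Ttc8 at 104.4 kb, Bbs1 at 108.4 kb and Bbs2 at 148.9 kb. Bbs5 and Bbs4 bordered the strong end of the list, with scores of 1.78 and 1.78 (not exceeded by 93.9% and 93.8% of boundaries). Bbs2, with a nearest boundary scored 0.764 in exonic sequence of Gnao1, a G protein gene, was the farthest BBS gene.

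Bbs10 and Bbs12 encode chaperonin-like proteins that assemble the BBSome. Bbs10 was 21.3 kb from a Weak boundary scored 0.451. Bbs12 was 102.4 kb from a Strong one scored 0.987 that held the start of Spata5 and overlapped Nudt6. Arl6, the GTPase that recruits the BBSome to membranes, lay 50.6 kb from a Strong boundary in an intron of Epha6 (score 0.918). Arl13b, a GTPase of the ciliary membrane, was 38.0 kb from a Strong boundary scored 1.10.

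Neither kinesin-2 gene was near a boundary. Kif17, whose product has been implicated in delivery of the olfactory cyclic nucleotide-gated channel, started 59.6 kb from a Strong boundary scored 0.784. Kif3a, a subunit of the heterotrimeric motor, was 132.4 kb from one scored 0.582, which held the starts of Uqcrq and Gdf9. Kif3a thus had more than the upper-quartile distance of all genes, 105.9 kb.

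Of the 3 transition zone genes, 1 was near a boundary. Mks1 (chromosome 11, 87853215 to 87863803, + strand), which encodes a subunit of the gate's membrane complex, started inside a Weak boundary scored 0.441 at 87850001 to 87855000. No other protein-coding start was within 10 kb of that boundary, and its neighbours were Strong, at 258.2 kb upstream and 106.8 kb downstream of the start. Rpgrip1l lay 108.3 kb from a Strong boundary scored 0.501, just above the limit of that class. Cep290, a large protein that links microtubules to the ciliary membrane, lay 137.4 kb from the strongest nearest boundary of any member, scored 1.91. On its upstream side no boundary was called for 607.6 kb. The resulting interval of 745 kb was the longest around a member and held 11 protein-coding starts.

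Of the 2 transcription factor genes, Rfx3 was near and Foxj1 was not. Rfx3 (chromosome 19, 27761721 to 28011166, − strand) had its start only 1.17 kb from a Strong boundary scored 0.654 at 28005001 to 28010000, which lay in an intron of Rfx3 itself. In the 155 kb up to the next boundary on the other side, scored 1.31, Rfx3 was the only protein-coding start. Foxj1, the regulator of motile ciliogenesis, started 25.4 kb from a Weak boundary scored 0.301 that held the start of Exoc7, a gene of the exocyst.

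**Figure D3:**
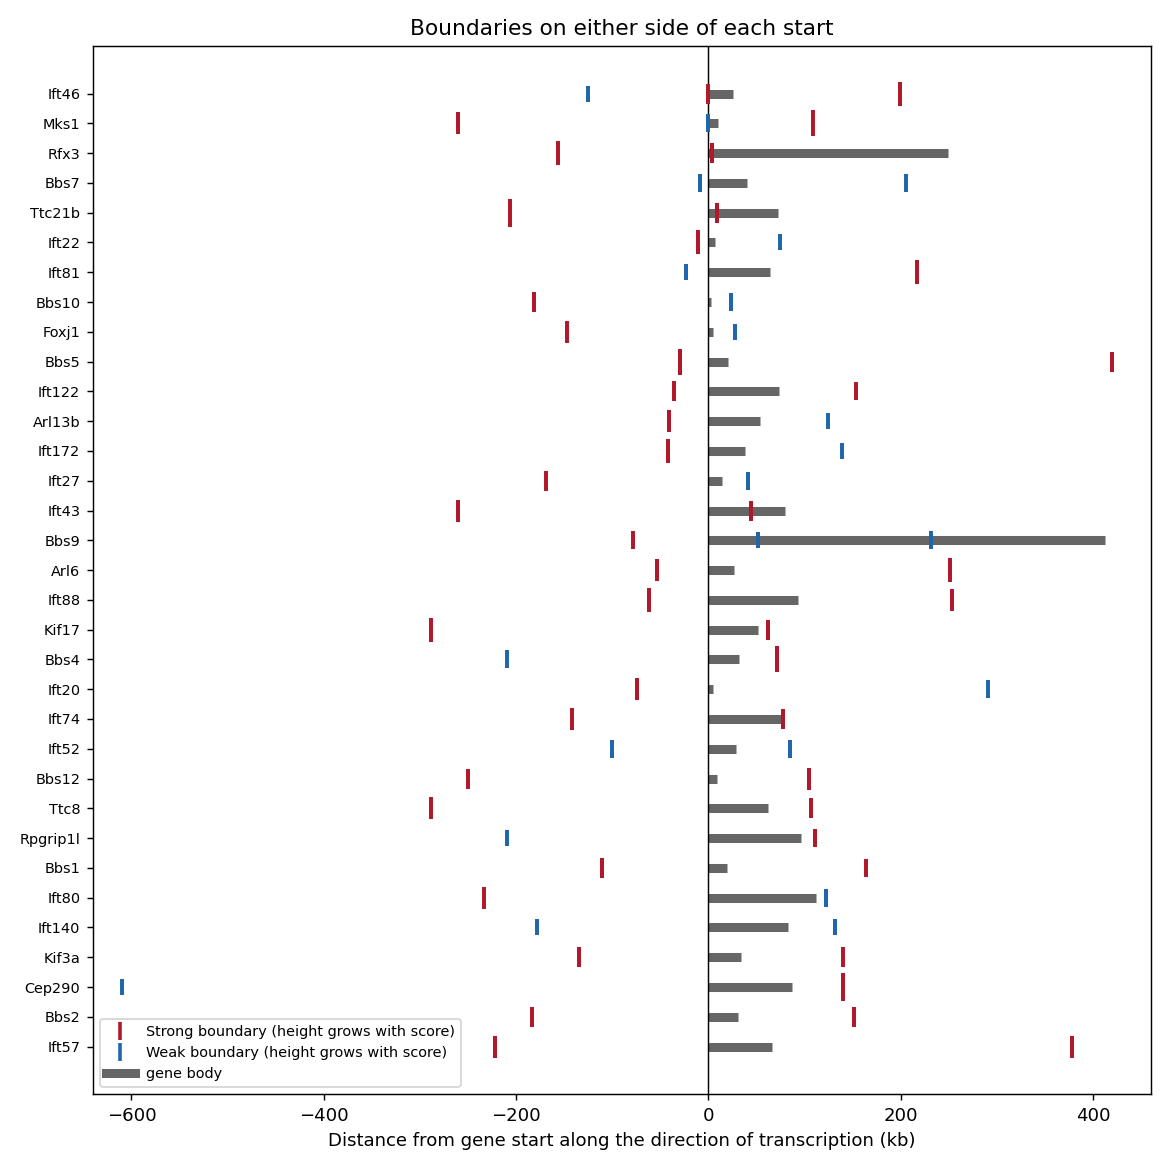
Position in kb, along each gene's own direction of transcription, of the nearest boundary on either side of each member start and of any boundary inside the gene body (grey bar), with Strong boundaries in red and Weak ones in blue, taller for higher scores. Members are sorted by distance; the boundaries of Rfx3, Ttc21b, Ift43, Bbs9 and Ift74 fall on the grey bars, and the interval around Cep290 is the widest at 745 kb.

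The nearest boundary was upstream of the start in 13 members, downstream in 18 and around it in 2. Over all genes the upstream share was 50.5%, against 39.4% here. For the 31 starts that lay between boundaries, the interval had a median length of 270.0 kb (range 80 to 745 kb), against 275.0 kb over all genes. It held a median of 5 protein-coding starts, against 6. Strong boundaries closed both sides of 15 of the 31 intervals (48.4%, against 37.7% of all genes). They closed 1 side of 13 (41.9%, against 48.75%) and no side of 3 (9.68%, against 13.5%). Those 3 were the intervals of Bbs7, Ift52 and Ift140.

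Boundaries overlapped the bodies of 7 members, 21.2% (exact 95% interval 8.98 to 38.9%), against 15.5% of all protein-coding genes. The members were longer than genes in general, with a median of 40.3 kb against 17.6 kb, and among genes of 20 to 60 kb the share was 16.5%. Of the 7, Ift46 alone (25.5 kb) lies in that band. Mks1 is shorter (10.6 kb) and the others are longer (72.3 to 412.6 kb), so the band does not match them in length. In Ift46 and Mks1 the boundary covered the start, and in Rfx3 and Ttc21b it lay within 10 kb of it. The boundary of Ift43 was in an intron, 42.5 kb from the start of a gene of 79.9 kb. That of Ift74, Strong with a score of 0.623, overlapped the gene's last exonic and untranslated sequence. Bbs9, the longest member at 412.6 kb, was crossed by 2 Weak intronic boundaries scored 0.248 and 0.409, at 49.3 and 229.3 kb from its start. The other 26 members lay whole between boundaries.

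CTCF, the insulator protein found at many boundaries, recognises a consensus that was searched on both strands in each boundary and the 10 kb on either side. A match was present at 23.1% of all 7435 boundaries and at 13 of the 33 nearest boundaries of the members (39.4%). These sets are unlike, since 51.8% of all boundaries were Strong and 69.7% of the members' nearest ones. The share with a match was not computed by class or for the nearest boundaries of all genes. None of these 13 belonged to the 6 near starts: 0 of 6 boundaries had a match, which by a limit of 3 counts allows a share of up to 50%, and 13 of 27 boundaries beyond 10 kb had one (48.1%). The boundaries of the whole list were not split by distance to a gene start, so this contrast has no background. No interval was computed for these shares. The boundaries inside Bbs9 and Ift43 did have matches. They are shown because these boundaries lie in introns, away from the gene starts. Other annotated transcripts begin 9.95 kb from the Ift43 boundary and 12.5 kb from the Bbs9 boundary nearer to the start. Each match is in capitals, in the 5′ to 3′ direction of the consensus on GRCm38, with 9 bases on either side. The first, 6.16 kb to the left of the Bbs9 boundary nearer to the start, is on the + strand at chr9:22518819-22518848. The second and the third lie 1.25 kb left (− strand, chr9:22703733-22703762) and 3.47 kb right (+ strand, chr9:22713462-22713491) of the other Bbs9 boundary, and the fourth lies 2.97 kb right of the Ift43 boundary (+ strand, chr12:86132959-86132988).

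Bbs9, nearer boundary: gaagagctgCCACTAGAGGGCaggcctcta

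Bbs9, other boundary, left: ccagagaagCCAGCAGATGGCatcagaccc

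Bbs9, other boundary, right: ggtaagcagCCACCAGGGGGCagacacaac

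Ift43: ttaatcttcCCAGCAGGGGGCagacttcat

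The matches of the second and the third sequence point away from the boundary between them on the chromosome. The boundary next to Kif17 had the most matches of any member's nearest boundary, 4, all to its right and 0.962 to 4.72 kb from it. A match is a description of sequence, and occupancy by CTCF was not measured here.

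Promoter sequence was compared because the RFX proteins act there. The window ran from 250 bases before to 50 bases after the gene start, and a full X-box was taken as GTTNCC followed, after any 2 bases, by its reverse complement GGNAAC. It was found in 2 member promoters, 6.06% (exact 95% interval 0.743 to 20.2%), and in 0.418% of all protein-coding promoters. Both genes, Mks1 and Bbs7, were among the 6 with a start within 10 kb of a boundary. The share of all X-box genes that start within 10 kb of a boundary was not computed. Among the other cilium genes with an X-box, described further on, Ahi1 alone started that near. The X-box of Mks1 began 24 bases before the start and so lay inside the boundary, and that of Bbs7 began 33 bases before the start. They are shown as the strand of each gene reads, with the X-box in capitals and 8 bases on either side. Their positions are chr11:87853183-87853212 (+ strand) and chr3:36613489-36613518 (− strand). Beside them is the match of Ahi1 at chr10:20952560-20952589 (+ strand), a transition zone gene outside the 33 that also started inside a boundary. The last is that of Dync2li1 at chr17:84626445-84626474 (+ strand), a dynein light intermediate chain gene of the retrograde motor, which started 151.5 kb from its nearest boundary.

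Mks1: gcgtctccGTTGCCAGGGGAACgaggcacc

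Bbs7: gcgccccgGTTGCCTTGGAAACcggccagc

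Ahi1: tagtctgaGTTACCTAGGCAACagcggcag

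Dync2li1: gtgacgtcGTTGCCATGGCAACcgaggagc

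The hexamer GTTGCC, 1 arm of the X-box, was searched on both strands and overlaps the full motif where that begins with these letters. It occurred in 15 of 33 member promoters, 45.5% (exact 95% interval 28.1 to 63.6%), against 11.9% of all genes. Member promoters were rich in CG pairs, with a median of 20 in 300 bases against 11, and among 11833 genes with 7 to 34 CG pairs, the range of the members, the hexamer share was 12.9%. No test was made, since the genes were chosen as ciliary. In 6 of the 15 members (Rfx3, Bbs5, Ift172, Ift27, Ift88 and Bbs1) the hexamer lay only after the start. With the 250 bases before the start alone, a setting chosen after seeing the data, the shares were 27.3% of members, 9.80% of all genes and 10.5% of those with 7 to 34 CG pairs. The IFT class held 7 of the 15 (Ift27, Ift57, Ift80, Ift81, Ift88, Ift140 and Ift172) and the BBS class 3 (Bbs1, Bbs5 and Bbs7); Arl13b, Kif3a, Mks1, Foxj1 and Rfx3 made up the rest. Ift57 and Ift81 had 2 hexamers each. In Ift81 they lie on opposite strands at the start with 1 base between them (chr5:122614505-122614534, − strand), and in Rfx3 the hexamer lies after the start (chr19:28011118-28011147, − strand), in the promoter of a gene for an RFX protein. Capitals mark the hexamer, with 12 bases on either side.

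Ift81: cgcatggcaaccGTTGCCaaggagcggtct

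Rfx3: gttatagcaaccGTTGCCttgtgaatcaag

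Hexamers were found at 3 of the 6 near starts (50%) and 12 of the other 27 (44.4%). The 6 near starts are too few to tell whether these shares differ, and the same split was not made over all genes. Allowing 1 mismatch among the 10 fixed letters of the X-box added Ift22, Bbs4, Bbs1 and Ift57, 6 members in all (18.2%, against 2.55% of all genes).

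A protein-coding gene that started on the other strand up to 1 kb upstream, and so shared a promoter region, was present at 7 members, 21.2% (exact 95% interval 8.98 to 38.9%), against 6.9% of all protein-coding genes and 9.95% of those with 7 to 34 CG pairs. Among 53 other cilium genes, which are described further on, the share was 13.2% (7 genes, exact 95% interval 5.48 to 25.3%). Counting opposite starts up to 1 kb on either side, a setting chosen after seeing the data, gave 24.2% of members, 11.04% of all genes and 15.8% of those with 7 to 34 CG pairs. The 7 upstream pairs were Ift20 with Tnfaip1 (29 bases between starts), Ift46 with Arcn1 (63), Ift122 with Mbd4 (99), Ift80 with Smc4 (168), Cep290 with Tmtc3 (208), Rpgrip1l with Fto (263) and Ift140 with Cramp1l (297). The partners include a DNA glycosylase gene (Mbd4), a condensin subunit gene (Smc4) and an RNA demethylase gene (Fto). Of the 7 pairs, that of Ift46 alone was within 10 kb of a boundary. None of the 10 BBS genes had such a partner, where a count of 0 allows up to 30%.

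**Figure D4:**
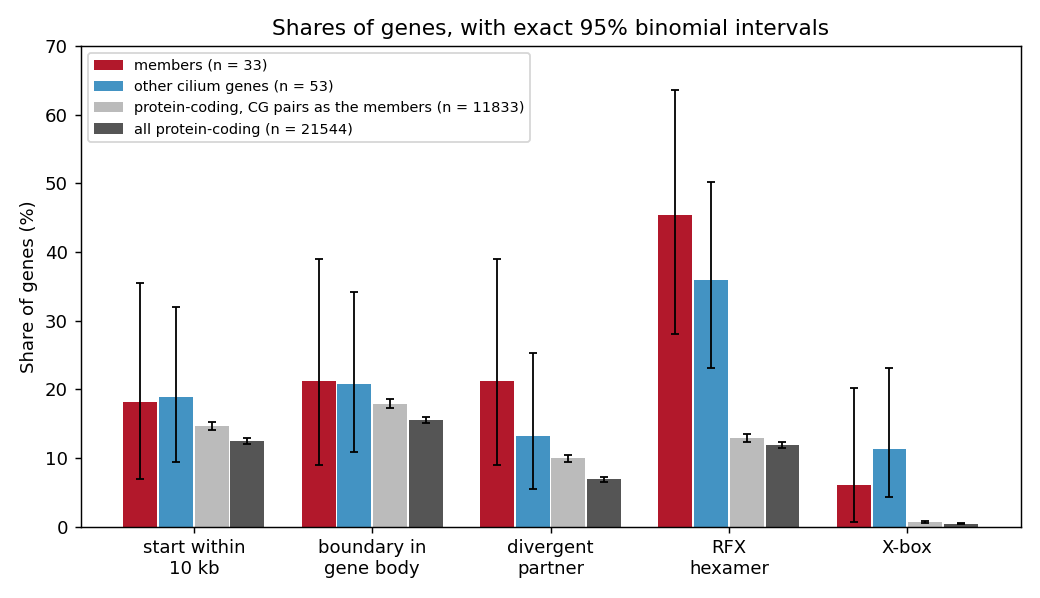
Share of genes in percent, with exact 95% binomial intervals as bars, for 5 features of position and promoter in the 33 members, 53 other cilium genes, protein-coding genes with as many promoter CG pairs as the members, and all protein-coding genes. The widest gap is in the RFX hexamer, 45.5% of members against 11.9% of all genes, and for starts within 10 kb the interval of the members reaches from 6.98 to 35.5%.

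A list of 55 other cilium genes of the same classes, also chosen with earlier results of these data known, was set beside the members. Of these, Tctn2 is not annotated as protein-coding and Lztfl1 lay beyond the last boundary of its chromosome, which left 53. Within 10 kb of a boundary were 10 (18.9%, exact 95% interval 9.44 to 32.0%), against 18.2% of members and 12.5% of all protein-coding genes. The share over all genes lay within this interval. Inside a boundary were 6 (11.3%, exact 95% interval 4.27 to 23.0%, against 3.29% of all genes). These were Kifap3, the kinesin-associated subunit that binds Kif3a's motor (Strong, score 1.38), Trim32 (Strong, 1.35), Ahi1 (Strong, 1.77), the GTPase gene Arl3 (Weak, 0.403), Rpgr on X (Strong, 1.12) and Tctn3 (Strong, 0.669). Tmem67, Mkks, Iqcb1 and Wdr34 were at 0.020, 1.39, 3.39 and 3.88 kb. By class, 5 of 20 transition zone genes, 2 of 9 motor genes, 2 of 5 BBS genes and 1 of 3 GTPase genes were near, beside 12.5% of all genes. Of 11 other IFT genes 0 were near, which allows up to 27.3%, where 3 of 15 IFT members were. The hexamer was in 19 of the 53 promoters (35.8%) and the full X-box in 6 (11.3%), those of Ahi1, Cluap1, Dync2li1, Tctn1, Ttc26 and Ttc30a2. Of these 6, Ahi1 alone started within 10 kb of a boundary. The other starts lay at 63.8 kb (Cluap1), 76.5 kb (Ttc26), 130.5 kb (Tctn1), 136.8 kb (Ttc30a2) and 151.5 kb (Dync2li1).

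For 11 genes of odorant signalling in the cilium, 1 start was within 10 kb (9.09%, against 12.5% of all genes), that of Gng13. The distances had a median of 46.8 kb (range 0 to 94.1 kb). No gene of this list was over 100 kb from a boundary, where 10 of the 33 cilium transport and BBS genes were (30.3%, against 27.1% of all genes). The exact binomial interval of this count of 0 among 11 genes ran from 0 to 28.5%. It covered the share of all genes and overlapped the members' interval of 15.6 to 48.7%, so 11 genes are too few to tell whether these shares differ. The hexamer was present in 1 of these 11 promoters (9.09%, against 11.9% of all genes).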

How the data were processed

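Per the series design text and the submitters' processing notes, the authors combined the contact lists of both replicates on GRCm38 and called boundaries on the resulting matrix. The deposited list gives each boundary an interval of 5 kb, a class and a score. The score is the authors' own, is described, ranked and compared only within this list, and its formula is not given in the sources used here; nor are the aligner, the filters and the method that called the boundaries. Contact matrices and insulation tracks were not used here.

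Boundaries and GENCODE M21 genes were checked to lie within the chromosome lengths of the GRCm38.p6 sequence. Coordinates are 1-based. A start was the 5′ end of a gene, and distance ran to the nearest edge of a boundary, with 0 inside. Left out were 211 protein-coding starts that lay before the first or after the last boundary on their chromosome. Intervals are exact binomial (Clopper-Pearson) at 95% and cover counting error only. Distances were checked on simulated boundaries. Sequences came from the RefSeq copy of GRCm38.p6, and RefSeq promoter windows were matched for 29 of 33 members. The members and lists were chosen with earlier results of these data known. Genes given in full are the members within 10 kb, the 5 farthest, and those with a boundary in the body; other genes named share a near boundary or a promoter with a member, hold its boundary, or belong to the other cilium list and lie within 10 kb. Genes with an X-box or named by their nearest boundary's other start were chosen after their values were seen. No test across genes was made. Analyses used Python 3.11.15, pandas 2.3.3 and SciPy 1.17.1.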

Additional observations from a re-analysis of the deposited data

How the results depend on the processing

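No paired analysis was possible because the list was called on both replicates together and holds no replicate values, and for the same reason no replicate could be left out. The share of member starts near a boundary was 6.06% when the start had to lie inside it and 48.5% within 50 kb, and the other 9 settings gave 9.09 to 24.2%, each within the interval of 6.98 to 35.5%; all genes had the lower share except within 25 kb. The median distance rose to 102.4 kb with Strong boundaries only and 104.4 kb with boundaries of at least the median score (all genes 101.7 and 106.4 kb). The interval around starts had a median of 387.5 kb under both settings (all genes 500 and 525 kb). With the whole boundary inside the gene, 4 members in place of 7 had a boundary in the body (12.1%, all genes 10.1%). The hexamer share was 27.3% before the start only (all genes 9.80%), and with at most 2 mismatches the X-box share was 36.4% (all genes 14.4%); the stretch before the start, RefSeq starts and windows, mismatches, CG pairs and opposite starts on either side were chosen after seeing the data. With any transcript start in place of the gene's, 7 members were near (21.2%, all genes 16.7%), Ift43 (9.95 kb) being the addition. The Strong share ran from 63.6% for the nearest boundary downstream of the start (all genes 61.2%) to 75.8% for that upstream (all genes 62.9%). The members number 33, so shares are precise only to the intervals given.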
